A study of Mus musculus with 9 samples.

Results

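The 9 netrin and netrin receptor genes examined here were the secreted netrins Ntn1 and Ntn4, the membrane-anchored netrin-G genes Ntng1 and Ntng2, the receptors Unc5a, Unc5b and Unc5c, and the DCC family receptors Neo1 and Dcc. They were taken by gene symbol from a table of 55487 genes, and all 9 were present. They were selected on earlier results of these same counts, including the differences between groups, so their values are given as a description and without tests. RNA was sequenced from MCEC, an endothelial cell line from mouse heart, in 9 libraries. There were 3 libraries of unmodified cells (WT), 3 of cells with Zbtb46 knocked down (KD) and 3 of cells made to overexpress Zbtb46 (OE), a transcription factor with a BTB domain and zinc fingers. The labels gave neither the means of knockdown or overexpression nor a group with an empty vector, and they did not say whether replicates came from separate cultures. P-values therefore measure only the spread between these libraries, which may be technical.

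Netrins are laminin-related proteins first known as guidance cues for growing axons. Netrin-1 attracts or repels through the receptors DCC, neogenin (the product of Neo1) and the UNC5 family, and in blood vessels UNC5B is the receptor best known for restraining sprouting tip cells. Netrin-4 is a component of vascular basement membranes that binds laminin, whereas netrin-Gs are held on the cell surface by a lipid anchor and bind the NGL proteins instead of DCC or UNC5. Neogenin also serves as the receptor for repulsive guidance molecules, which act with bone morphogenetic protein signalling.

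Total counts ran from 39491828 to 55745849 per library. Zbtb46 itself went from 13.65 ± 0.623 CPM in WT (SD, n = 3) down to 11.2 ± 0.537 in KD and up to 191 ± 2.67 in OE, where CPM are counts per 1000000 counts of the library, with totals adjusted for composition by TMM factors. Of 15 endothelial markers, 5 reached 1 CPM in WT, 5 in KD and 4 in OE, led by Eng and Flt1. Erg and Emcn had at most 3 counts in every library, and so did Cldn5 and Icam2, while Cdh5 had at most 3 counts in each WT and KD library. Pecam1, Tie1, Vwf and Robo4 had at most 10 counts in any library. The summed endothelial markers stood at 146.9 to 159.7 CPM in WT, 124 to 131 in KD and 107 to 118 in OE. Most of each sum came from Eng alone, with means of 124.5 ± 6.78 CPM in WT (SD, n = 3), 108.2 ± 3.09 in KD and 84.9 ± 3.04 in OE. Summed fibroblast and mural markers (7 genes, led by Dcn and Pdgfra) stood at 113 to 124 CPM in WT, 112 to 119.6 in KD and 51.9 to 53.0 in OE. The 5 neuron markers summed to 31.0 to 38.8 CPM in WT, 50.04 to 53.3 in KD and 29.8 to 31.6 in OE, nearly all from Map2, while Rbfox3, Snap25 and Stmn2 had at most 3 counts in every library. Leukocyte markers summed to at most 5.15 CPM and cardiomyocyte markers to at most 1.36 CPM in any library, with Adgre1, Ptprc, Myh6 and Actn2 at 3 counts or fewer throughout. The part of these markers in the results below was not tested. In bulk RNA, fewer cells expressing a gene and less of its RNA per cell cannot be told apart.

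The promoters of 3 members are shown because these genes had contrasting patterns: Ntng2 was far higher in OE than elsewhere, Neo1 was lower in OE, and Unc5b stayed near 1 level in all groups. Each sequence comes from the 250 bases before the RefSeq start of the gene on GRCm38.p6 and is read 5′ to 3′ on the minus strand. The whole window is shown for Neo1 (chr9:59036442-59036691) and Unc5b (chr10:60831582-60831831). For Ntng2 only the 61 bases farthest from the start are shown (chr2:29248289-29248349), since the window enters an annotated exon of the gene at the next base. Capitals mark each CG dinucleotide, a motif that reads the same on both strands and cannot overlap itself.
Neo1: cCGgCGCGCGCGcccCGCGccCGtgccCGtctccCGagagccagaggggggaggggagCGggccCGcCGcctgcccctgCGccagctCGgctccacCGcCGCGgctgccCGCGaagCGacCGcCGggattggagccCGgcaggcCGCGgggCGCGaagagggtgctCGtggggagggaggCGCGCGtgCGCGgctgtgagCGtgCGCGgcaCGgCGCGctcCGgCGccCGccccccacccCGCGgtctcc
Unc5b: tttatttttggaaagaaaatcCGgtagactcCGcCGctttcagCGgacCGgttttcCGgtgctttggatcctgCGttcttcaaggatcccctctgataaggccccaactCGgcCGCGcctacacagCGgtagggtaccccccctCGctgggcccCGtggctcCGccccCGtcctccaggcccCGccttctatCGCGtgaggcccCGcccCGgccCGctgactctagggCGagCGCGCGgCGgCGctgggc
Ntng2: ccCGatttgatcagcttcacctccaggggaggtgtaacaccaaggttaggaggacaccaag
The full window of 250 bases before the RefSeq start held 45 CG in Neo1, 27 in Unc5b and 4 in Ntng2. The Neo1 and Unc5b windows lie directly beyond the annotated gene. That of Ntng2 lies inside the annotated gene, which begins at base 29253005 on the minus strand. The Ntng2 count therefore does not describe the sequence before that annotated start. Over 32841 RefSeq promoters the median was 6, the quartiles were 2 and 16, and 92.1% held at least 1 CG. Neo1 had more than 99.6% of them, Unc5b more than 91.4% and Ntng2 more than 37.8%. The other 4 members in the promoter table lay near Unc5b, with 26 in Ntn4, 25 each in Ntng1 and Unc5a, and 23 in Unc5c. These counts describe the sequence, and no methylation or binding was measured here.

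In unmodified MCEC the netrin receptors Unc5b and Neo1 were abundant and the ligands were scarce. To set genes beside each other, CPM were divided by the annotated exon length in kilobases. On this per-length scale WT levels were 58.9 ± 2.04 (SD, n = 3) for Unc5b, 27.9 ± 1.72 for Neo1, 1.048 ± 0.131 for Ntn1, 0.719 ± 0.131 for Ntn4, 0.153 ± 0.0211 for Unc5c and 0.0434 ± 0.0177 for Ntng2. Each step in this order was larger than the spread, since the 3 libraries of neighbouring genes did not overlap. Unc5a had 1 count in each WT library, and Ntng1 and Dcc had 0 in all of them, where a count of 0 allows up to 3 counts, or 0.0504 to 0.0791 CPM depending on the library. Unc5b made up 99.7% of the summed per-length level of Unc5a, Unc5b and Unc5c in WT, 99.7% in KD and 99.8% in OE. Some ligands of UNC5 receptors or neogenin outside the 9 members stood above Ntn1 in WT. These were Flrt2 at 8.89 ± 1.04 CPM per kb (SD, n = 3), Flrt3 at 4.58 ± 0.635 and Rgmb at 2.25 ± 0.179, while Rgma was near Ntn1 at 1.19 ± 0.0775.

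Both modified lines changed this order. In KD, Ntn1 left the third place and stood at 0.00429 ± 0.00371 CPM per kb (SD, n = 3), a level at which it could not be ranked against Ntng2, Unc5a, Ntng1 or Dcc. In OE, Ntn1 remained the third at 3.39 ± 0.173 CPM per kb, and Ntng2 moved up to the fourth at 1.55 ± 0.126, above Ntn4 at 0.567 ± 0.0238. Unc5b and Neo1 kept the first and second places in all 3 groups, with Neo1 at 31.8 ± 0.262 CPM per kb in KD and 15.6 ± 0.321 in OE.

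**Figure D1:**
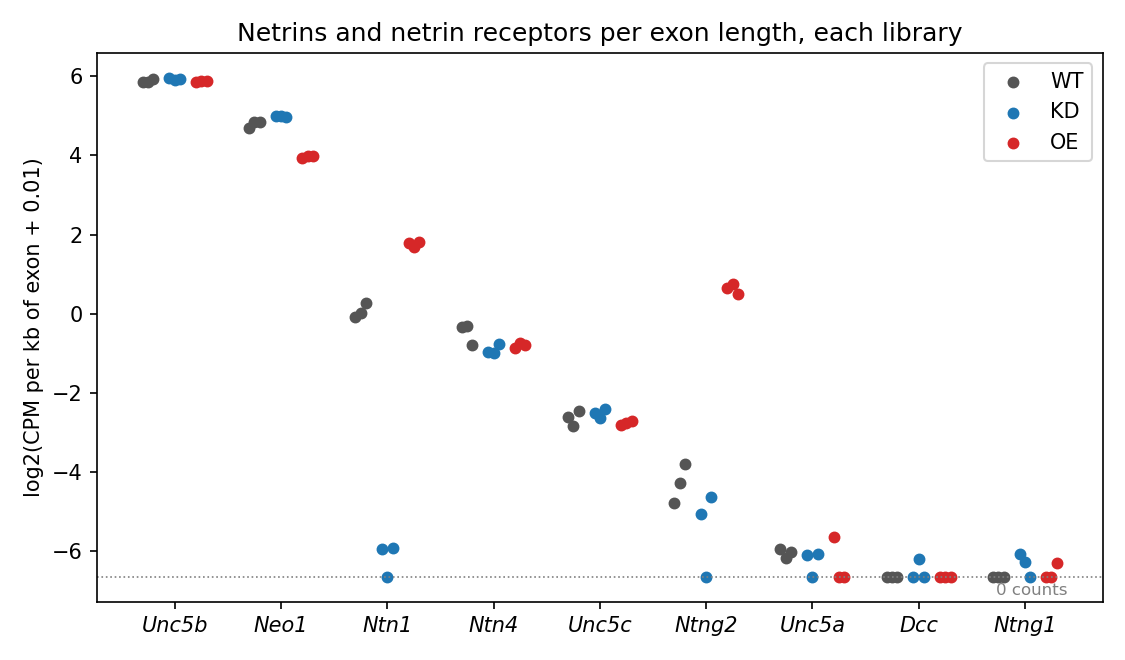
Each point is 1 library, with the level on the y axis as log2 of CPM per kb of exon plus 0.01 and the 9 genes on the x axis, ordered by their WT mean. Unc5b and Neo1 lie at the top in every group, Ntn1 spans the widest range, and Ntng2 in OE stands apart from its WT and KD values.

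Of the 9 members, 6 passed the filter on low counts and entered the fit across all 16955 genes tested. Ntng1, Unc5a and Dcc did not, with at most 2 counts in any library. Ntng2 passed the filter only through its OE libraries, and it failed when KD and WT were taken alone. In KD against WT the libraries of 2 of the 6 members, Ntn1 and Neo1, did not overlap between groups, beside 34.7% of all genes tested. In OE against WT these were 3 members, Ntn1, Ntng2 and Neo1, beside 45.1% of all genes. In OE against KD they were 5, all but Ntn4, beside 55.4%. Because the members were chosen with these contrasts known, nothing is read from these counts. The comparisons with WT share its 3 libraries.

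Ntn1 was almost lost in KD and raised in OE. It encodes netrin-1 and occupies bases 68209364 to 68400823 of chromosome 11 (minus strand, GRCm38, as for all positions here). The WT libraries had 224, 377 and 335 counts, or 5.91, 6.34 and 7.495 CPM. The KD libraries had 2, 0 and 2 counts, and the OE libraries had 1021, 992 and 991, or 21.8, 20.03 and 22.03 CPM. No group overlapped another, with every KD library near 0 and every OE library above all WT libraries.

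The WT mean of 6.58 ± 0.822 CPM (SD, n = 3) rose in OE to 21.3 ± 1.08 CPM, a 3.23-fold difference and a log2 fold change of 1.69 (SE 0.11). In KD the mean was 0.0269 ± 0.0233 CPM. The WT total of counts was 228.8 times that of KD after scaling, with a 95% interval from 89.1 to 841 that covers counting error only, since KD held 4 counts in all. The OE total was 737.9 times that of KD, with an interval from 288 to 2710. Changes larger than that of Ntn1 were found in 2.48% of tested genes between OE and WT and in 0.0944% between KD and WT. Over all settings tried the log2 fold change ran from 1.63 to 1.78 in OE against WT and from -8.05 to -7.26 in KD against WT.

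The nearest tested genes on either side of Ntn1 did not pass the threshold in any comparison, which was an adjusted p under 0.05 in edgeR's quasi-likelihood test. Stx8, a membrane fusion gene 2216 bases away, had 12.3 ± 0.995 CPM in WT (SD, n = 3), 12.1 ± 0.217 in KD and 13.97 ± 0.437 in OE. Pik3r5, on the other side at 31298 bases, had at most 0.808 CPM as a group mean. The 145 tested genes within 5 Mb of Ntn1 had a median of -0.09 for the log2 fold change in KD against WT, and none of them fell as far as Ntn1. In OE against WT their median was 0.00, and 2 of them lay above Ntn1.

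Ntn4 was lower on average in KD and OE than in WT, but its groups overlapped in all 3 comparisons. This gene for netrin-4 occupies bases 93640681 to 93747207 of chromosome 10 (plus strand). The libraries stood at 2.95, 2.99 and 2.13 CPM in WT, at 1.89, 1.83 and 2.17 in KD, and at 2.03, 2.20 and 2.13 in OE. WT replicate 3 was the low one of its group and lay among the KD and OE libraries. The log2 fold change was -0.45 (SE 0.17) in KD and -0.34 (SE 0.16) in OE against WT, and without WT replicate 3 it was -0.59 and -0.49.

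**Figure D2:**
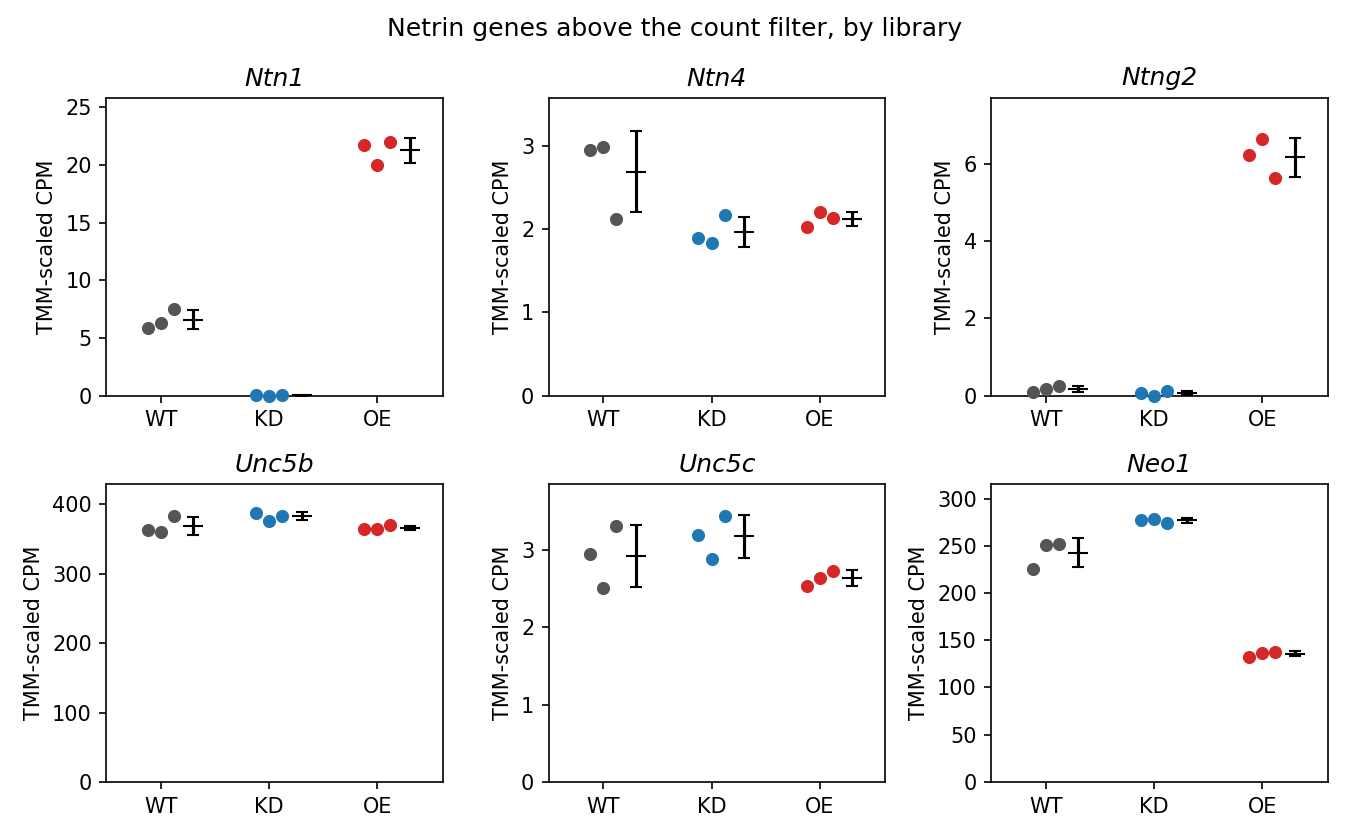
TMM-scaled CPM on the y axis for the 6 members above the count filter, with 1 point per library and the mean and SD of 3 libraries beside the points; each panel starts at 0 and has its own scale. Ntn1 is near 0 in KD and above 20 CPM in OE, Ntng2 is seen mainly in OE, Neo1 is lower in OE, and Unc5b stays between 360.1 and 388.0 CPM.

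The netrin-G pair split into a gene that appeared in OE and a gene that was hardly detected. Ntng2, which encodes netrin-G2 at bases 29194541 to 29253005 of chromosome 2 (minus strand), had 4, 10 and 11 counts in WT. It had 4, 0 and 6 counts in KD and 292, 329 and 254 in OE, or 6.22, 6.64 and 5.65 CPM there. All OE libraries lay far above the others, while the WT and KD libraries overlapped.

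Ntng2 was 34.6-fold higher in OE than in WT, at 6.17 ± 0.501 against 0.173 ± 0.0705 CPM (SD, n = 3), which is 5.11 (SE 0.29) on the log2 scale. The scaled ratio of counts was 35.2 with a 95% counting interval from 23.7 to 54.7. A larger change was found in 0.201% of tested genes. Against KD, at 0.0675 ± 0.0623 CPM, the OE level was 83.1-fold higher, a log2 fold change of 6.38 (SE 0.60) that ran from 5.895 to 7.04 over all settings. KD held only 10 counts in all, and the scaled ratio of counts was 86.0 with a 95% counting interval from 46.5 to 179.9. The scaled ratio of counts of WT to KD was 2.44, with an interval from 1.13 to 5.70 that covers counting error only and leaves out the spread between libraries. The WT and KD libraries overlapped, so no difference between them is read from this ratio. Its partner Ntng1 had 3 counts in KD, 1 in OE and 0 in WT over 3 libraries each, too few for a fold.

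Counts of Ntng2 could be shared with another transcript. The noncoding gene 6530402F18Rik lies on the same strand from 29245107 to 29253006 and overlaps 558 of the 3990 exon bases of Ntng2. It stood at 0.591 ± 0.0870 CPM in WT (SD, n = 3), 0.162 ± 0.0895 in KD and 11.5 ± 0.925 in OE. In edgeR's quasi-likelihood test it was lower in KD (log2 fold change -1.87, SE 0.46, adjusted p = 3.67e-04) and higher in OE (4.28, SE 0.13). How reads in the shared bases were assigned is not given in the sources used here. Med27, the nearest tested gene at higher coordinates, did not pass the threshold in any comparison. The 197 tested genes within 5 Mb had a median of -0.05 on the log2 scale in OE against WT, and 1 of them lay above Ntng2.

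Unc5b, the main UNC5 receptor of these cells, varied least among the 6 members tested. It occupies bases 60762593 to 60831581 of chromosome 10 (minus strand). The libraries stood at 362.9, 360.1 and 383.5 CPM in WT, at 388.0, 376.6 and 383.3 in KD, and at 364, 365 and 369.9 in OE. WT overlapped both other groups, and each OE library lay below each KD library by a small margin.

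The log2 fold change of Unc5b was 0.05 (SE 0.03) in KD and -0.01 (SE 0.03) in OE against WT, and 97.6% of the genes tested changed by more in the latter comparison. Over all settings it ran from 0.02 to 0.08 in KD and from -0.07 to 0.01 in OE. In OE against KD it was -0.06 (SE 0.014). Unc5c, another repulsive netrin receptor, at bases 141465216 to 141834924 of chromosome 3 (plus strand), was near 3 CPM in every group. Its means were 2.92 ± 0.405 CPM in WT (SD, n = 3), 3.18 ± 0.277 in KD and 2.64 ± 0.0990 in OE, and OE lay below KD without overlap at a log2 fold change of -0.27 (SE 0.08). The third UNC5 gene, Unc5a, had at most 2 counts in any library, so no difference was detectable at this depth.

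Neo1 went the opposite way to Ntn1, slightly up in KD and down in OE. Neogenin is encoded at bases 58874687 to 59036441 of chromosome 9 (minus strand). The WT libraries stood at 225.4, 251.1 and 251.8 CPM, the KD libraries at 277.7, 278.8 and 274.4, and the OE libraries at 132.5, 136.8 and 137.7. The 3 groups were fully separate, with WT replicate 1 the lowest of its group.

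In OE, Neo1 fell by 44.1% from WT, from 242.8 ± 15.0 to 135.7 ± 2.80 CPM (SD, n = 3), or -0.84 (SE 0.06) as a log2 fold change. In KD it stood at 277.0 ± 2.29 CPM, a log2 fold change of 0.19 (SE 0.05), or 0.15 when libraries were scaled by their totals alone. From KD to OE the level fell by 51.0%, or -1.03 (SE 0.02) as a log2 fold change. The related receptor Dcc, which mediates attraction to netrin-1 in neurons, had 2 counts in 1 KD library and 0 in the other 8 libraries.

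Genes around Neo1 were also lower in OE. Of the 109 tested genes within 5 Mb, 66 were past the threshold as lower and 5 as higher in OE against WT, beside 19.5% lower and 17.0% higher among all genes tested, and their median log2 fold change was -0.42. Neo1 lay 0.42 below that median and 94 of the 109 genes lay above Neo1. In OE against KD the median was -0.47, with 67 lower and 6 higher beside 22.1% and 19.4% of all genes, and Neo1 lay 0.56 below it. In KD against WT the median was 0.07. The part of this shared shift in the level of Neo1 was not tested.

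**Figure D3:**
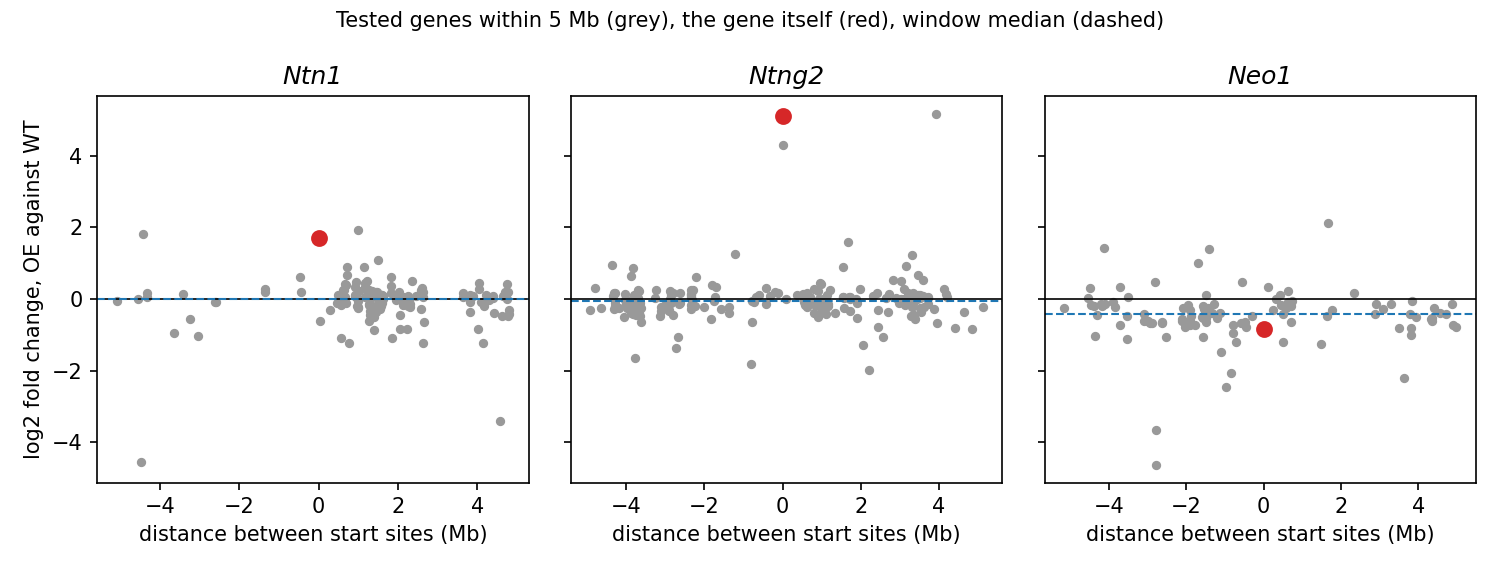
Log2 fold change in OE against WT on the y axis for the tested genes within 5 Mb of Ntn1, Ntng2 and Neo1, by the distance between start sites in Mb on the x axis; grey points are neighbours, the red point is the gene itself and the dashed line is the median of the neighbours. The median lies near 0 around Ntn1 and Ntng2 and at -0.42 around Neo1, and the grey point directly below Ntng2 is 6530402F18Rik.

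The balance of Ntn1 to receptor RNA moved with these changes. On the per-length scale, Ntn1 amounted to 1.77 ± 0.164 per 100 of Unc5b in WT (SD, n = 3), 0.00696 ± 0.00603 in KD and 5.79 ± 0.273 in OE. Against Neo1, Ntn1 amounted to 3.76 ± 0.332 per 100 in WT, 0.0135 ± 0.0117 in KD and 21.8 ± 1.29 in OE. No library overlapped another group in either ratio. Neo1 itself amounted to 47.3 ± 2.73 per 100 of Unc5b in WT, 51.98 ± 1.02 in KD and 26.6 ± 0.429 in OE. These ratios restate the levels above and compare RNA only.

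The genes most like each member across the 9 libraries were found among 9922 genes by the root mean square difference of log2 CPM after each gene was centred on its own mean. For Ntn1, Eif4g3 (0.495) and Tubb4a (0.795) were among the nearest, where Ntn1 itself varied by 3.60 on this scale. Eif4g3, a translation initiation gene, went from 16.8 ± 0.320 CPM (SD, n = 3) in WT to 0.215 ± 0.139 in KD and 51.7 ± 2.27 in OE. For Ntng2, which varied by 2.67, the nearest were Fgfbp3 (0.795), Armcx4 (0.839) and Eps8l2 (0.964). For Neo1, which varied by 0.449, they were Kank1 (0.037), Il6st (0.047) and Armcx2 (0.050). Il6st, the shared receptor chain of the interleukin-6 family, stood at 344 ± 37.3 CPM in WT, 412 ± 3.17 in KD and 198 ± 6.47 in OE. For Unc5b, which varied by only 0.038, they were Axin1 (0.014), Scrib (0.022) and Tubb5 (0.024). Ntn4 and Unc5c varied by 0.234 and 0.156, and their nearest genes were Pdcd4 (0.095), Asah2 (0.114) and Ctdsp2 (0.114) for Ntn4, and Fam149b (0.055), Tmem267 (0.069) and Clk3 (0.073) for Unc5c. This is a description over 9 libraries that differ mostly by group.

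Of 42 other genes of the netrin pathway, which included none of the 9 members, 32 were tested. In KD against WT, 9 rose and 8 fell, in OE against WT 5 rose and 11 fell, and in OE against KD 8 rose and 13 fell. Among all genes tested, 11.0% were higher and 10.4% lower in KD against WT, 17.0% and 19.5% in OE against WT, and 19.4% and 22.1% in OE against KD. The median of their log2 fold changes was 0.07 in KD, 0.01 in OE and -0.06 between OE and KD, where all genes tested had medians of 0.00, 0.00 and 0.01. The median size of change was 0.21 in KD, 0.25 in OE and 0.31 between OE and KD, against 0.16, 0.22 and 0.25 for all genes. The list was also better expressed, with a median WT level of 58.8 CPM against 12.4, and its part in the counts was not tested. In KD the count was 11 in place of 17 with library totals alone and also 11 without KD replicate 1.

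Of 5 tested genes for ligands of these receptors and of netrin-G, 4 fell and none rose in OE, where 19.5% of all genes fell and 17.0% rose. In KD, 2 rose and none fell, beside 11.0% and 10.4% of all genes. Flrt3, which encodes an adhesion protein that binds UNC5 receptors, had 19.4, 25.6 and 21.9 CPM in WT, 35.5, 39.4 and 38.02 in KD, and 8.82, 11.1 and 10.4 in OE. The 3 groups were fully separate. It rose by a log2 fold change of 0.75 (SE 0.12) in KD and fell by 1.15 (SE 0.15) in OE, and edgeR gave adjusted p of 1e-05 and 3.35e-08. Its relative Flrt2 fell by 0.51 (SE 0.10) in OE, and stood at 0.16 (SE 0.10) in KD. The repulsive guidance genes Rgmb and Rgma, ligands of neogenin, fell in OE by 0.36 (SE 0.07) and 0.50 (SE 0.10). In KD, Rgmb rose by 0.27 (SE 0.07), a call that was lost with library totals alone and without KD replicate 1 (adjusted p in edgeR of 0.0599 and 0.0601). Rgma went the other way in KD, at -0.34 (SE 0.13), and did not pass (adjusted p = 0.0804 in edgeR), though its KD libraries all lay below those of WT. Lrrc4, a binding partner of netrin-Gs, had at most 0.323 CPM as a group mean and did not pass. The other 4 ligand genes were under the filter.

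Among 6 tested genes for other netrin receptors, 3 rose and 2 fell in KD (all genes, 11.0% and 10.4%), and 1 rose and 3 fell in OE (all genes, 17.0% and 19.5%). Itgb4, the integrin beta-4 chain that forms a netrin-binding pair with the product of Itga6, went from 2.35 ± 0.353 CPM (SD, n = 3) in WT to 1.42 ± 0.214 in KD and 0.884 ± 0.247 in OE. It fell by 1.39 (SE 0.28) in OE, and edgeR gave an adjusted p of 1.17e-04. Its fall of 0.71 (SE 0.17) in KD (edgeR, adjusted p = 0.0344) did not pass without WT replicate 1 or 3 or KD replicate 2 or 3, where edgeR's adjusted p ran from 0.0785 to 0.13. Itga6, its partner chain, rose in both lines, by 0.34 (SE 0.04) in KD and 0.22 (SE 0.04) in OE, the latter lost with library totals alone (adjusted p = 0.0798 in edgeR). Itga3 and Itgb1, which encode the integrin pair alpha-3 beta-1, fell in OE by 0.29 (SE 0.06) and 0.26 (SE 0.08). Both rose in KD, by 0.13 (SE 0.06) and 0.15 (SE 0.07), but neither passed with library totals alone, or without any 1 of the KD libraries (adjusted p in edgeR from 0.0586 to 0.171). Itga3 also did not pass without WT replicate 1 or 2 or any 1 of the OE libraries, and Itgb1 not without WT replicate 3. Neither passed when KD and WT were fitted alone (adjusted p in edgeR of 0.107 for Itga3 and 0.0705 for Itgb1). The KD and WT libraries of Itga3 overlapped. Mcam, a vascular adhesion molecule that binds netrins, fell by 0.23 (SE 0.07) in KD, though not without KD replicate 1 or 2 (adjusted p of 0.0806 and 0.069 in edgeR), and its value of 0.09 (SE 0.04) in OE did not pass. Ntn3, the 1 other netrin gene tested, stood at 4.58 CPM in WT, 3.41 in KD and 3.78 in OE and did not pass in any comparison.

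Of 20 tested intracellular partners, 4 rose and 6 fell in KD (all genes, 11.0% and 10.4%). In OE 4 rose and 4 fell, shares of this group close to the 17.0% and 19.5% of all genes. Dapk1, a kinase that transmits the death signal of UNC5 receptors left without ligand, had 104, 128 and 94 counts in WT, 27, 50 and 35 in KD, and 10, 0 and 5 in OE. The groups did not overlap, and the fall was 21.3-fold in OE, a log2 fold change of -4.42 (SE 0.78, adjusted p = 2.43e-06 in edgeR's test). In KD it was -1.49 (SE 0.36, adjusted p = 0.00971 in edgeR's test), which did not pass without KD replicate 1 or KD replicate 3 (adjusted p of 0.0564 and 0.0556).

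Arhgef12 and Pak1 changed in opposite directions in both lines. Arhgef12, an activator of RhoA, went from 217.5 ± 12.3 CPM (SD, n = 3) in WT to 269.6 ± 9.70 in KD and 153.5 ± 6.16 in OE, and Pak1, an effector of Rac and Cdc42, went the opposite way, from 9.23 ± 0.289 to 6.12 ± 0.358 and 13.2 ± 0.777. Between OE and KD, Pak1 was 2.16-fold higher and Arhgef12 1.76-fold lower, and edgeR gave adjusted p of 5.92e-09 and 1.32e-11. Dock1, an activator of Rac, fell by 0.47 (SE 0.07) in OE (adjusted p = 1.87e-06 in edgeR's test) and stood at 0.01 (SE 0.07) in KD. The kinase gene Src and Maged1, which encodes a binding partner of UNC5A, fell in KD by 0.40 (SE 0.022) and 0.29 (SE 0.016), and their values of 0.06 (SE 0.022) and 0.00 (SE 0.021) in OE did not pass.

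**Figure D4:**
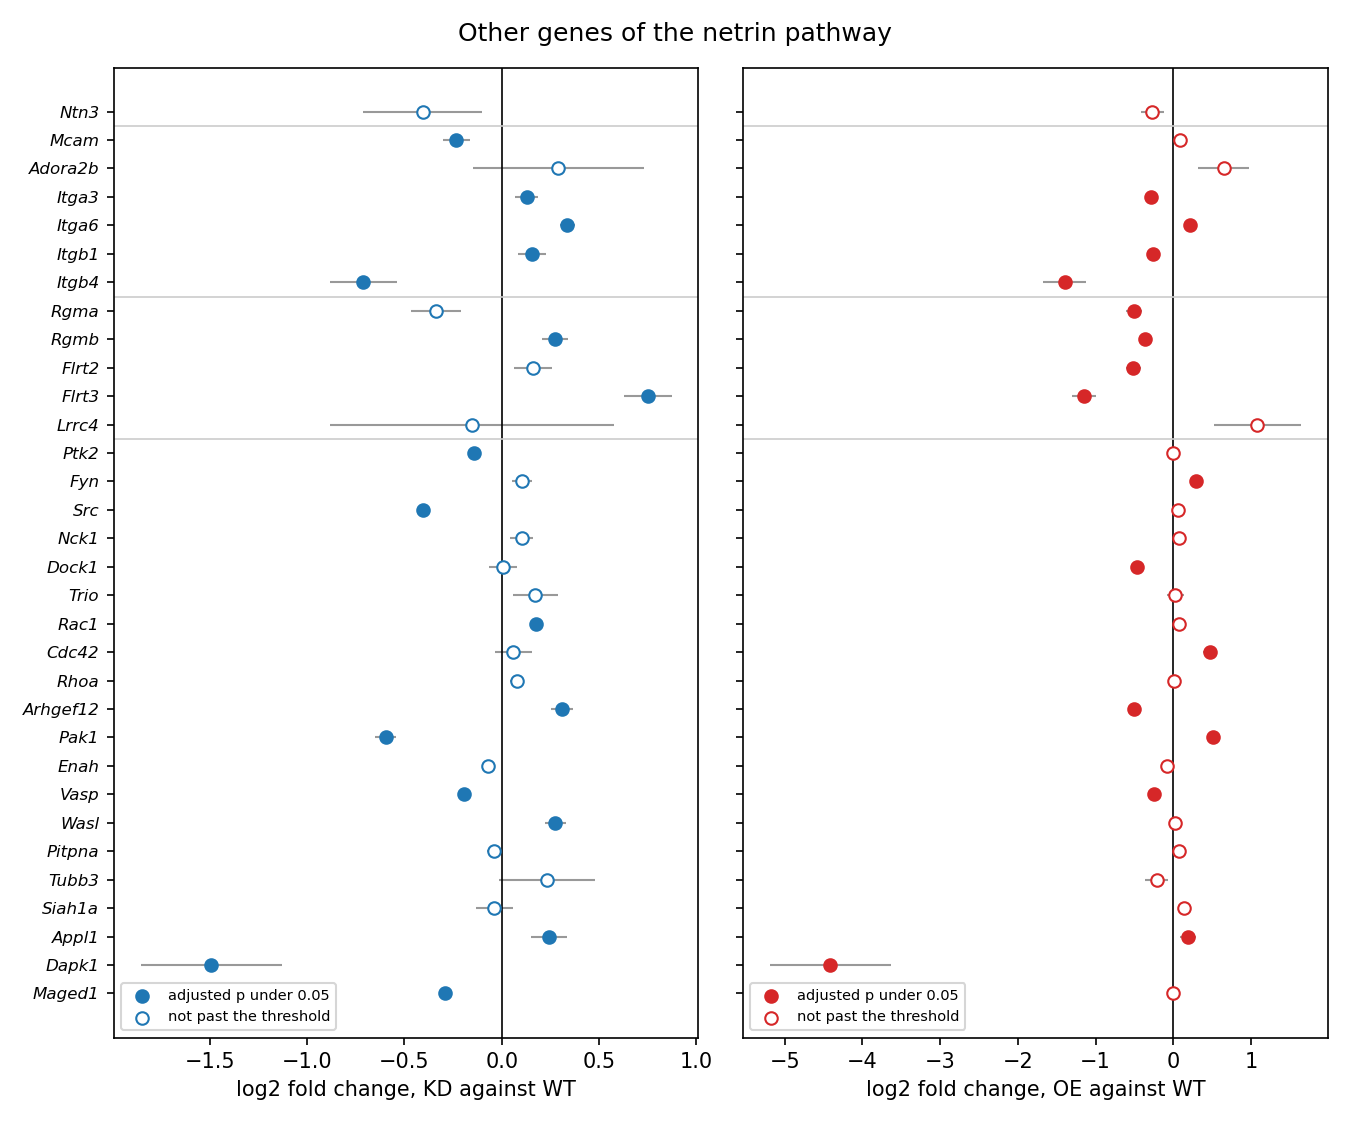
Log2 fold change with its SE on the x axis for the 32 tested pathway genes, in KD against WT (left) and OE against WT (right, on a wider scale), grouped by role from other netrins at the top through receptors and ligands to intracellular partners. Filled points passed an adjusted p of 0.05 and open points did not; Flrt3 lies on opposite sides of 0 in the panels and Dapk1 lies farthest to the left in both.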

How the data were processed

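The authors deposited a table of raw counts for each Ensembl gene in each library; the values are whole numbers with unequal totals. Per the submitters' processing notes the builds named were GRCm38 and mm10; the aligner, counting program and use of strand are not given in the sources used here. The table had 55774 rows, and 168 repeated genes were counted once. Of 55487 genes, 55227 matched GENCODE M21 by identifier for positions and exon lengths. Counts were analysed with edgeR 4.0.16 in R 4.3.3: filterByExpr by group (16955 genes), TMM factors, 1 quasi-likelihood fit over 9 libraries with group as the only term, and Benjamini-Hochberg adjustment over all genes. DESeq2 1.42.0 was an alternative. Levels are mean ± SD over 3 libraries, and SEs come from the SDs of log2 CPM with a prior count of 2. Count ratios carry exact 95% intervals. The procedure was tested on simulated data.

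The members, lists and comparisons were chosen with earlier results of these data known. Named genes were all members, pathway genes past the threshold with a 2-fold change or among the 3 smallest p in a comparison, the 3 genes most like each member (at least 5 CPM in a group), and neighbouring genes. Other pathway genes, and the choice of which likenesses to describe further, were picked after their values were seen. Not every gene that the rule selects, such as each neighbour, is reported here. Alternatives were other scaling, no filter, DESeq2, fits restricted to the pair of groups in question, a term for the replicate number, and each library left out. The subtraction of the median of genes within 5 Mb was added after seeing the data.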

Additional observations from a re-analysis of the deposited data

How the results depend on the processing

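The count of pathway genes past the threshold in KD against WT was 17, was 11 with library totals alone, and ran from 11 to 18 when 1 library was left out. With the replicate block it was again 17. In OE against WT the block gave 15 in place of 16, and in OE against KD 19 in place of 21. Over all settings that kept every library, the count ran from 14 to 16 in OE against WT and from 16 to 23 in OE against KD. With 1 library left out it ran from 15 to 16 in OE against WT and from 15 to 22 in OE against KD. Samples with the same number did not deviate together (correlations from -0.0421 to 0.049), so the numbers were not taken to pair them. Over all genes the replicate block gave 3574 in place of 3617 in KD against WT, 6111 in place of 6174 in OE against WT, and 6969 in place of 7031 for OE against KD. Under library totals, 35.8%, 31.6% and 40.8% of the genes past the threshold were higher, in place of 51.4%, 46.6% and 46.8%. The median of all genes moved most, by -0.06 on the log2 scale, in OE against WT with library totals alone. The log2 fold change of Unc5b in OE against WT, -0.01, ran from -0.07 to 0.01 and so changed sign. No pathway gene that passed the threshold changed sign in the settings run for it. Ntng2 could not be fitted in KD against WT with only those groups, where it failed the count filter. With the median of genes within 5 Mb removed, chosen after seeing the data, the log2 fold change of Neo1 was -0.42 against WT and -0.56 against KD. Ntng1, Unc5a and Dcc had too few counts for a fold in any comparison.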
